A study of Mus musculus with 9 samples.

Results

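A set of 10 genes of extracellular matrix turnover is described here in senescent mouse embryonic fibroblasts: the matrix metalloproteinase (MMP) genes Mmp2, Mmp3, Mmp9, Mmp10, Mmp13 and Mmp14, and the inhibitor genes Timp1, Timp2, Timp3 and Reck. They were chosen by name, as secreted or membrane proteases of a fibroblast and the inhibitors that act on them. Earlier results of these data were known when the choice was made. The set makes up 10 of the 24062 genes counted. All 10 passed the filter on low counts that left 15369 genes for testing. In all 3 groups the cells were fibroblasts of C57BL/6 embryos, made senescent by gamma irradiation and infected at day 10 after it with a lentivirus carrying a short hairpin RNA. The groups were shRela-1 and shRela-2, whose different hairpins target Rela (the NF-kB subunit p65), and shScr, a scrambled hairpin, with 3 samples each. Bulk RNA was sequenced, and the comparisons ask which transcripts of these cells change when Rela is knocked down. A non-irradiated group is not analysed here, so no value bears on senescence itself.

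MMPs are zinc-dependent proteases that are made as inactive precursors and cleave collagens, other matrix proteins and many signalling proteins once their propeptide is removed. TIMPs are small secreted proteins that bind the active site of MMPs, and RECK is a membrane-anchored glycoprotein that restrains MMP2, MMP9 and MMP14 at the cell surface. MMP14 with TIMP2 as a bridge activates pro-MMP2, so TIMP2 takes part in activation as well as in inhibition. Fibroblasts that become senescent are known to secrete stromelysins and collagenases, and in cultured cells NF-kB and AP-1 drive transcription of several MMP genes.

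Total counts per sample were between 49774667 and 67963506. Rela stood at 14.1, 13.6 and 13.2 CPM (counts scaled by TMM-adjusted library size) in shRela-1 replicates 1 to 3 and at 14.8, 13.5 and 13.4 CPM in shRela-2, against 85.5, 83.2 and 86.8 CPM in shScr. The knockdown groups did not overlap the controls. Their log2 fold changes were -2.64 ± 0.050 (SE) for shRela-1 and -2.62 ± 0.050 for shRela-2. All 7 fibroblast markers checked, such as Col1a1 and Pdgfrb, averaged above 1 CPM. All 8 macrophage markers checked, such as Csf1r and Cd68, did so too, with a summed level of 81.5 to 152 CPM over the samples. The shScr replicate 2 library stood apart from the other controls, with a chi-square per degree of freedom of 106 and 103 against them, where all other replicate pairs gave 11.3 to 32.5. Without it Mmp9 and Reck passed with shRela-1, and Mmp9, Mmp13, Mmp14, Timp2 and Reck with shRela-2. A dataset tag stands in the titles of the shScr samples and not in those of the knockdown samples, so control status and any batch behind the tag cannot be told apart. The labels do not say whether replicates came from separate cultures, so a p-value here reflects the spread among these samples alone, and that spread may be technical.

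The 3 TIMP genes averaged above the MMP genes and Reck. Per kilobase of exon, in CPM per kb, Timp1 averaged 635 ± 69.2 in shRela-1, 612 ± 49.1 in shRela-2 and 645 ± 65.8 in shScr (SD, n = 3 each). Timp2 averaged 391 ± 33.5 in shRela-1, 559 ± 39.8 in shRela-2 and 470.4 ± 35.7 in shScr, and its range met that of Timp1 in shRela-2 alone and that of Timp3 in shRela-1 alone. Next came Timp3 (379.7, 319 and 317 CPM per kb in shRela-1, shRela-2 and shScr), Mmp14 (245, 262 and 216) and Mmp2 (182, 182 and 173). The ranges of Timp3 and Mmp14 overlapped in shRela-2 and shScr. Mmp3, Reck, Mmp13, Mmp10 and Mmp9 formed a lower tier, with group means from 1.82 to 27.4 CPM per kb. In both knockdown groups Reck averaged above Mmp3 (22.5 against 19.9 CPM per kb in shRela-1, and 25.4 against 16.7 in shRela-2) with overlapping ranges, whereas in shScr Reck averaged 15.5 CPM per kb, below every value of Mmp3. Mmp13 and Mmp10 overlapped in all 3 groups, and Mmp10 and Mmp9 overlapped in shRela-1 and shScr. With exon lengths over all annotated transcripts in place of the basic set, Timp3, Mmp14 and Mmp2 drew closer together, and Mmp2 (158 CPM per kb) averaged above Mmp14 (152) in shScr.

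**Figure D1:**
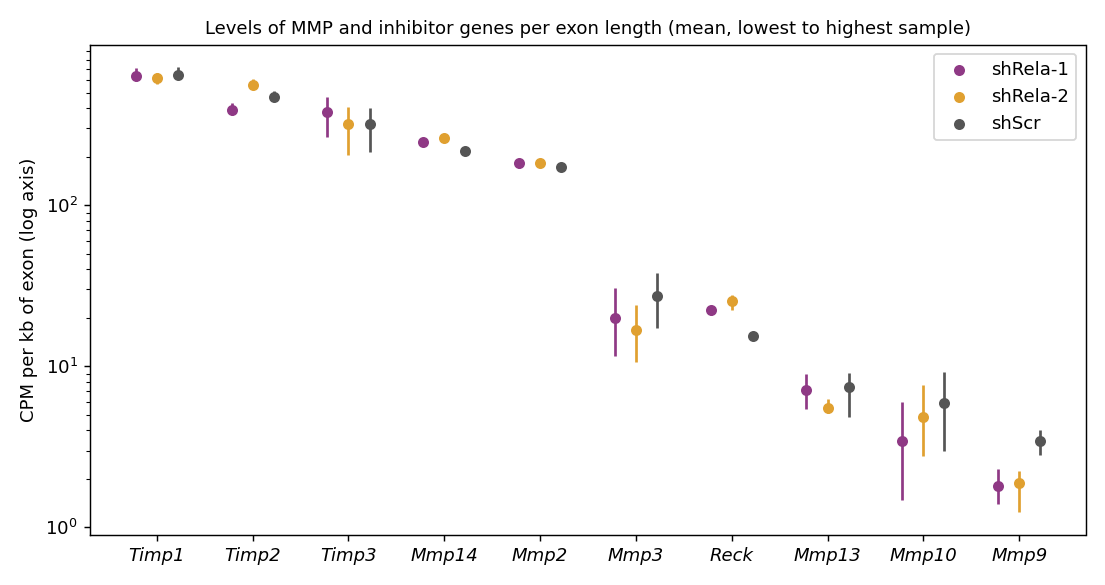
Levels of the 10 genes in CPM per kilobase of exon on a log axis. Points are group means of 3 samples and lines run from the lowest to the highest sample. The TIMPs, Mmp14 and Mmp2 sit above 100 CPM per kb, and Mmp3, Reck, Mmp13, Mmp10 and Mmp9 below 40.

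With shRela-1, 2 of the 10 genes rose against shScr (Mmp14 and Reck) and 2 fell (Mmp9 and Timp2), at an adjusted p under 0.05 in edgeR's quasi-likelihood test. Among all 15369 genes tested, 12.3% rose and 12.4% fell. With shRela-2, 3 rose (Mmp14, Timp2 and Reck) and 1 fell (Mmp9), where 15.4% of all genes rose and 15.4% fell. The median log2 fold change of the 6 MMP genes was -0.26 for shRela-1 and -0.36 for shRela-2, and that of the 4 inhibitors was 0.12 and 0.13, beside medians over all genes of 0.003 and -0.002. These medians include genes that were not called. The MMP values ran from -0.92 (Mmp9) to 0.18 (Mmp14) with shRela-1 and from -0.87 (Mmp9) to 0.28 (Mmp14) with shRela-2. The inhibitor values ran from -0.27 (Timp2) to 0.54 (Reck) and from -0.08 (Timp1) to 0.71 (Reck). The comparisons with the hairpins share their control samples. The direction of Mmp9, Mmp14 and Reck was the same with both hairpins, and that of Timp2 was opposite. With samples left out in turn, the 4 genes that changed with shRela-1 became 1 without shRela-1 replicate 3 and 2 without shScr replicate 1, shScr replicate 2 or shRela-1 replicate 1. The 4 with shRela-2 became 2 without shScr replicate 1 or 3.

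Replicate numbers are shared by the 3 groups, and samples with the same number deviated together. With the replicate number as a block in the fit, 8 of the 10 genes passed with shRela-1, where 39.3% of all genes passed in either direction. With shRela-2 8 of 10 also passed, where 44.4% of all genes did. The genes added were Mmp2, Mmp3 and Mmp10 with both hairpins, Timp3 with shRela-1 and Mmp13 with shRela-2. All 3 same-numbered differences had the same sign in 8 of the 10 genes with shRela-1 and in 7 with shRela-2, as they had in 61.0% and 64.4% of all genes. The blocked values are given below beside each gene whose call they change, and "rose" and "fell" are kept for calls made without the block.

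**Figure D2:**
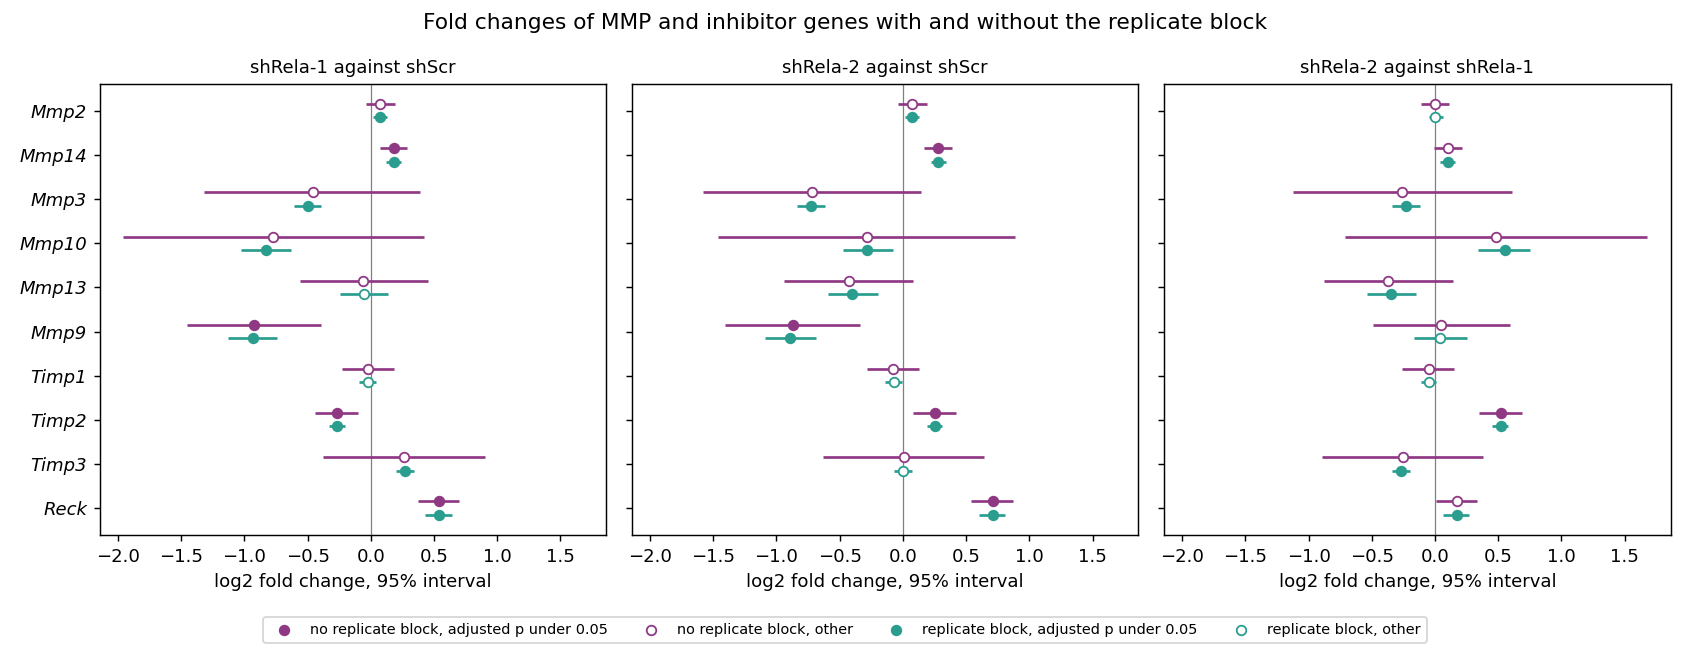
Log2 fold changes of the 10 genes with 95% intervals, in the fits without and with the replicate block. Filled points have an adjusted p under 0.05. The intervals of Mmp3, Mmp10 and Timp3 narrow most with the block, and Mmp9, Mmp14, Timp2 and Reck are filled in both fits against shScr.

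Of the 6 MMP genes in the set, Mmp9 was the 1 that fell with both hairpins. Mmp9, or gelatinase B, cleaves denatured collagen and collagen IV. On GRCm38 it spans chromosome 2, 164940780 to 164955850, on the plus strand. It stood at 7.36, 4.44 and 5.57 CPM in shRela-1 replicates 1 to 3 and at 7.01, 3.93 and 7.07 CPM in shRela-2, against 12.7, 8.94 and 11.3 CPM in shScr. Every knockdown sample was below every control, and replicate 2 was the lowest sample in each group. The log2 fold change was -0.92 ± 0.24 with shRela-1 (edgeR adjusted p = 0.0177) and -0.87 ± 0.24 with shRela-2 (edgeR adjusted p = 0.0183), or 0.53 and 0.55 times the control level. The call with shRela-1 was lost when shScr replicate 1 (edgeR adjusted p = 0.0553) or 3 (0.056), or shRela-1 replicate 2 (0.0639) or 3 (0.0645), was left out. With shRela-2 it was lost without shScr replicate 1 (0.0585) or 3 (0.0553). With the block the log2 fold change was -0.93 with shRela-1 (edgeR adjusted p = 7.48e-08) and -0.89 with shRela-2 (edgeR adjusted p = 1.34e-07). In bulk RNA, fewer cells of a type and less RNA per cell cannot be told apart.

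Macrophages and neutrophils are known sources of MMP9, so their markers were read in the same samples. The summed level of the 8 macrophage markers was 108, 152 and 120.3 CPM in shRela-1 replicates 1 to 3 and 81.5, 126 and 94.4 CPM in shRela-2, against 97.8, 152 and 112 CPM in shScr. The groups overlapped, and replicate 2 was the highest sample of each group, where Mmp9 was lowest. Within each replicate number the sum was lower in shRela-2 than in shScr, and in shRela-1 it was higher than in shScr in replicates 1 and 3 and the same to 3 digits in replicate 2. With shRela-2, 1 of the 8 markers, the integrin gene Itgam, fell against shScr (13.6 ± 2.53 CPM in shRela-2 and 19.8 ± 3.43 CPM in shScr). Over all genes tested, 15.4% fell with shRela-2. Of 6 neutrophil markers, 5 were in the count table, none averaged above 1 CPM, and their summed level was at most 0.483 CPM in any sample. The part of macrophages in the level of Mmp9 was not tested.

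Mmp3 (stromelysin 1), Mmp10 (stromelysin 2) and Mmp13 (collagenase 3) lie within 237.7 kb of chromosome 9, all on the plus strand. On GRCm38 Mmp13 spans 7272514 to 7283331, Mmp3 spans 7445822 to 7455975 and Mmp10 spans 7502352 to 7510240. Stromelysins cleave proteoglycans, laminin and fibronectin and can activate other pro-MMPs, and collagenase 3 cuts fibrillar collagen. Promoter windows of 300 bases from RefSeq (GRCm38.p6) were matched by symbol for 8 of the 10 genes, all but Mmp2 and Mmp9. The AP-1 motif TGANTCA, searched on both strands, was in the windows of these 3 clustered genes and in no other of the 8, and in 7.81% of all 32851 windows of that length. The stretch from 100 bases before to 10 bases after each start is shown because it holds the match in each of the 3 genes. Starts here are those of RefSeq. For Mmp10 the stretch ends at 7502351, before the start of the GENCODE M21 span given above, so its 2 annotated starts differ. Capitals mark the AP-1 match, which begins 46 bases before the start in Mmp3, 63 in Mmp10 and 35 in Mmp13.
Mmp3, chr9:7445722-7445831, plus strand: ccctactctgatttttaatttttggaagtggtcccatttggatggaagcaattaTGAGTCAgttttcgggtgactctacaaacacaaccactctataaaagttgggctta
Mmp10, chr9:7502242-7502351, plus strand: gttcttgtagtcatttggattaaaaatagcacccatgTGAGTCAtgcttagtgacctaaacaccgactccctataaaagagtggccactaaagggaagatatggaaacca
Mmp13, chr9:7272414-7272523, plus strand: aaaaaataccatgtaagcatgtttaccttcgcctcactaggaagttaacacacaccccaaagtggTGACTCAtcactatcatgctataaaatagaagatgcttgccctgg
The matches of Mmp3 and Mmp10 have the same letters, and that of Mmp13 is their reverse complement. A motif match is a description and not a binding site.

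A loose NF-kB motif, GGGNNNNNCC, was found on either strand in 5 of the 8 windows (Mmp14, Reck, Timp1, Timp2 and Timp3) and in 50.8% of all windows. The same 5 windows hold the GC box GGGCGG, which can overlap that motif and is in 35.7% of all windows. Neither match says whether a factor binds there. A stricter form of the NF-kB motif was found in 0 of the 8 windows and in 4.79% of all windows.

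Mmp3 stood at 55.3, 21.0 and 31.0 CPM in shRela-1 replicates 1 to 3 and at 43.0, 19.1 and 27.9 CPM in shRela-2, against 68.5, 31.2 and 48.4 CPM in shScr. In every group replicate 1 was highest and replicate 2 lowest, so the groups overlapped although each knockdown sample was below the control of its own number. Without the block the log2 fold change was -0.46 ± 0.39 with shRela-1 (edgeR adjusted p = 0.438) and -0.72 ± 0.39 with shRela-2 (edgeR adjusted p = 0.199). Same-numbered log2 ratios were -0.31, -0.58 and -0.64 for shRela-1 and -0.67, -0.71 and -0.80 for shRela-2. With the replicate block the log2 fold change was -0.50 with shRela-1 (edgeR adjusted p = 9.20e-08) and -0.73 with shRela-2 (edgeR adjusted p = 3.82e-10).

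Mmp10 was less abundant and varied more. It stood at 10.4, 2.54 and 4.84 CPM in the shRela-1 samples and at 13.2, 4.78 and 6.89 CPM in the shRela-2 samples, against 15.9, 5.13 and 9.31 CPM in shScr. The order of the replicate numbers was again 1, 3, 2 from high to low in each group, and the highest sample was 4.07 times the lowest in shRela-1, 2.77 times in shRela-2 and 3.11 times in shScr. Without the block its log2 fold change was -0.77 ± 0.54 with shRela-1 (edgeR adjusted p = 0.345) and -0.28 ± 0.53 with shRela-2 (edgeR adjusted p = 0.738). With the block it was -0.83 (edgeR adjusted p = 4.73e-07) and -0.28 (edgeR adjusted p = 0.0195). Mmp3 and Mmp10 transcripts share sequence: 140 of 1752 stretches of 50 bases in Mmp3, and 140 of 1673 in Mmp10, occur in the other gene. Reads from these stretches could be assigned to either gene, and the labels do not state how such reads were counted.

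Mmp13 stood at 23.8, 14.5 and 19.2 CPM in the shRela-1 samples and at 16.7, 13.6 and 14.1 CPM in the shRela-2 samples, against 24.3, 12.9 and 22.8 CPM in shScr. Replicate 2 was lowest in each group, and the groups overlapped. The log2 fold change was -0.06 ± 0.23 with shRela-1 (edgeR adjusted p = 0.889, and 0.722 with the block) and -0.43 ± 0.23 with shRela-2 (edgeR adjusted p = 0.191). With the block the value for shRela-2 was -0.40 (edgeR adjusted p = 0.00157), and without shScr replicate 2 the unblocked test passed (edgeR adjusted p = 0.0176). In replicate 2 both knockdown samples were above the control, with log2 ratios of 0.17 for shRela-1 and 0.08 for shRela-2, whereas in replicates 1 and 3 the ratios for shRela-2 were -0.54 and -0.69.

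**Figure D3:**
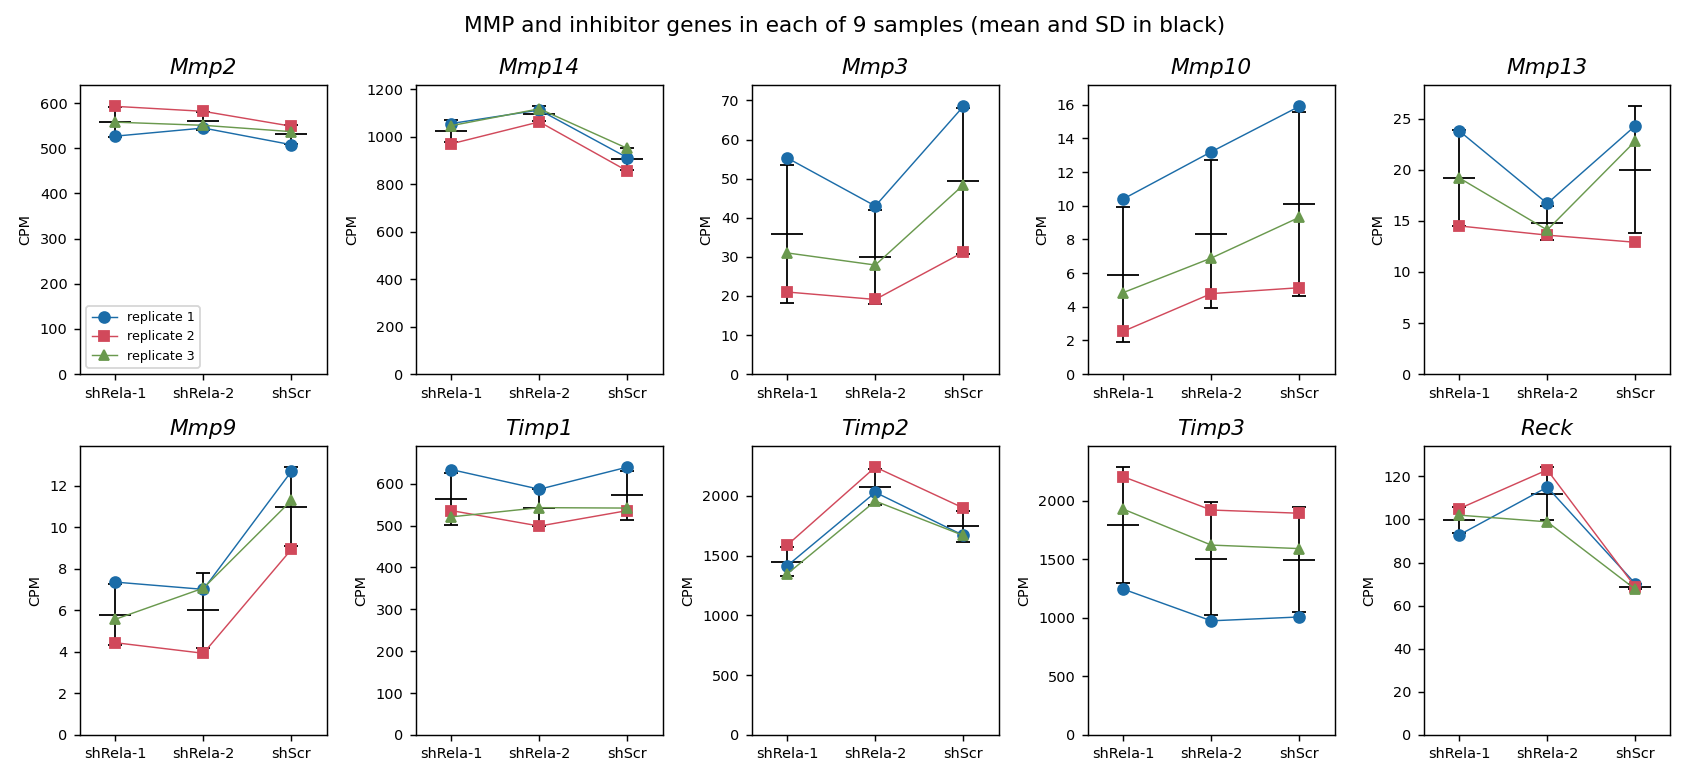
Level of each of the 10 genes in CPM in every sample, with the mean and SD of each group in black and lines joining samples of the same replicate number. Replicate 1 is highest and replicate 2 lowest in every group for Mmp3, Mmp10 and Mmp13, and the reverse holds for Timp3. For Reck and Mmp14 every shScr sample is below all 6 knockdown samples, and for Mmp9 every shScr sample is above them. For Timp2 the shScr samples lie between the hairpin groups.

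Mmp14, the membrane-type protease MT1-MMP that cleaves collagen at the cell surface and activates pro-MMP2, rose with both hairpins. It lies on chromosome 14, 54431612 to 54445364, plus strand. Its level was 1055, 969.6 and 1046 CPM in the shRela-1 samples and 1112, 1062 and 1117 CPM in the shRela-2 samples, against 911, 855 and 950.0 CPM in shScr. The 3 groups did not overlap, and shRela-2 was the highest. The log2 fold change was 0.18 ± 0.050 with shRela-1 (edgeR adjusted p = 0.0259) and 0.28 ± 0.050 with shRela-2 (edgeR adjusted p = 0.00195), or 1.13 and 1.21 times the control level. The call with shRela-1 was lost without shScr replicate 1 (edgeR adjusted p = 0.0522) or 2 (0.089), or shRela-1 replicate 1 (0.0795) or 3 (0.0843). It was also lost when libraries were scaled by their totals alone (edgeR adjusted p = 0.0519). With the block the value for shRela-1 was 0.18 (edgeR adjusted p = 5.16e-05).

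Mmp2, or gelatinase A, the constitutive gelatinase of fibroblasts, lies on chromosome 8, 92827291 to 92853420, plus strand. Its level was 527, 593 and 558 CPM in the shRela-1 samples and 545, 582 and 551 CPM in the shRela-2 samples, against 508, 549 and 537 CPM in shScr. The groups overlapped, and replicate 2 was the highest sample in each. Its log2 fold change was 0.07 ± 0.051 with each hairpin (edgeR adjusted p = 0.338 for shRela-1 and 0.312 for shRela-2). With the block the same 0.07 had an edgeR adjusted p of 0.0297 for shRela-1 and 0.0234 for shRela-2.

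Reck rose with both hairpins and had the smallest adjusted p of the 10 genes with each. It lies on chromosome 4, 43875530 to 43944806, plus strand. Its level was 92.8, 105 and 102 CPM in the shRela-1 samples and 115, 123 and 98.9 CPM in the shRela-2 samples, against 70.2, 68.7 and 67.6 CPM in shScr. All 6 knockdown samples were above all 3 controls, whose SD was 1.30 CPM. Reck rose 1.45-fold with shRela-1 (log2 fold change 0.54 ± 0.073, edgeR adjusted p = 4.28e-04) and 1.63-fold with shRela-2 (0.71 ± 0.073, edgeR adjusted p = 5.97e-05). Leaving out any 1 sample kept the log2 fold change between 0.50 and 0.59 with shRela-1 and between 0.64 and 0.79 with shRela-2.

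Timp2 changed in opposite directions with the hairpins. It lies on chromosome 11, 118301069 to 118355740, minus strand. Its level was 1415, 1588 and 1347 CPM in the shRela-1 samples and 2029, 2240.2 and 1956 CPM in the shRela-2 samples, against 1669, 1898 and 1668 CPM in shScr. The shRela-1 samples were all below the controls and the shRela-2 samples all above them. It fell with shRela-1 (log2 fold change -0.27 ± 0.076, edgeR adjusted p = 0.0264) and rose with shRela-2 (0.25 ± 0.076, edgeR adjusted p = 0.0287). Without the block both calls were sensitive to single samples. The fall was lost without shScr replicate 2 (edgeR adjusted p = 0.0961) or shRela-1 replicate 1 (0.0738) or 3 (0.105). The rise was lost without shScr replicate 1 (0.0862) or 3 (0.105) or shRela-2 replicate 2 (0.112). Same-numbered log2 ratios were -0.24, -0.26 and -0.31 for shRela-1 and 0.28, 0.24 and 0.23 for shRela-2. With the block the log2 fold change was -0.27 with shRela-1 (edgeR adjusted p = 3.32e-07) and 0.25 with shRela-2 (edgeR adjusted p = 7.01e-07).

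Timp1 and Timp3 did not pass in either comparison without the block. Timp1, the TIMP that binds pro-MMP9, lies on chromosome X, 20870166 to 20874735, plus strand. It stood at 634, 536 and 521 CPM in the shRela-1 samples and at 587, 499 and 543 CPM in the shRela-2 samples, against 639.9, 536 and 542 CPM in shScr. The groups overlapped throughout, and the 95% interval of the log2 fold change was -0.23 to 0.18 for shRela-1 and -0.28 to 0.13 for shRela-2. Timp1 was the inhibitor that did not pass with the block either (edgeR adjusted p = 0.601 for shRela-1 and 0.0547 for shRela-2), besides Timp3 with shRela-2 (0.991).

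Timp3, which binds to the extracellular matrix and also inhibits ADAM proteases, lies on chromosome 10, 86300372 to 86349506, plus strand. It stood at 1245, 2205 and 1928 CPM in the shRela-1 samples and at 974, 1920.4 and 1621 CPM in the shRela-2 samples, against 1007, 1893 and 1591 CPM in shScr. Replicate 1 was lowest and replicate 2 highest in each group, the reverse of Mmp3, Mmp10 and Mmp13, and the groups overlapped. Without the block the fold change on the log2 scale was 0.26 ± 0.29 with shRela-1 (edgeR adjusted p = 0.573) and 0.01 ± 0.29 with shRela-2 (edgeR adjusted p = 0.988). Same-numbered log2 ratios with shRela-1 were 0.31, 0.22 and 0.28, and with the block the value was 0.27 (edgeR adjusted p = 9.52e-07). Exons of Timp3 share 1733 bases with Syn3 on the opposite strand and the library kit does not mark strand. Syn3 averaged 0.685, 0.719 and 0.757 CPM in shRela-1, shRela-2 and shScr, and the effect of the overlap on the count of Timp3 was not tested.

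Set against each other, the hairpins differed in 1 of the 10 genes: Timp2 was higher with shRela-2 than with shRela-1 by 0.52 ± 0.076 on the log2 scale (edgeR adjusted p = 3.14e-04). Over all genes, 20.0% rose and 19.9% fell with shRela-2 relative to shRela-1. Same-numbered log2 ratios of Timp2 were 0.52, 0.50 and 0.54, and Rela itself differed by 0.03 ± 0.051. Mmp14 also did not overlap between the hairpins, with a log2 difference of 0.10 ± 0.050 (edgeR adjusted p = 0.141, 0.00681 with the block, and 0.0416 with libraries scaled by their totals alone). Reck differed by 0.17 ± 0.073 (edgeR adjusted p = 0.0868, 0.00718 with the block, 0.0465 with library totals alone, and 0.00624 without shRela-2 replicate 3). With the block 7 of the 10 genes passed, where 51.9% of all genes did, and 6 of the 10 had the same sign in all 3 same-numbered differences, against 69.2% of all genes. The blocked log2 differences were 0.55 for Mmp10 (edgeR adjusted p = 6.46e-05), -0.23 for Mmp3 (0.00118), -0.35 for Mmp13 (0.00375) and -0.27 for Timp3 (4.70e-07). The neighbours Mmp3 and Mmp10 thus lay on opposite sides of 0 between the hairpins, and without the block the 95% intervals of both included 0.

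The spread of each gene over the 9 samples was divided into a share between hairpin groups, a share between replicate numbers and the rest, as percentages of the sum of squares of log2 CPM. The share between numbers was 89.8% for Timp3, 84.8% for Timp1, 77.8% for Mmp10, 72.5% for Mmp3, 63.1% for Mmp2 and 58.7% for Mmp13. For these 6 genes the replicate number held more of the spread than the hairpin did. The spread itself differed in size. The SD of log2 CPM over the 9 samples was 0.07 for Mmp2 and 0.12 for Timp1, below the median of 0.20 over all tested genes. It was 0.37 for Mmp13, 0.43 for Timp3, 0.63 for Mmp3 and 0.84 for Mmp10. Over all tested genes the medians were 13.7% between numbers and 63.1% between groups, and the 6 genes ranked above 90.9% to 99.2% of tested genes in their share between numbers. In the other 4 genes the hairpin groups held most of the spread, with 92.0% for Reck, 84.6% for Timp2, 83.2% for Mmp14 and 66.2% for Mmp9. The labels do not say what the numbers stand for.

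**Figure D4:**
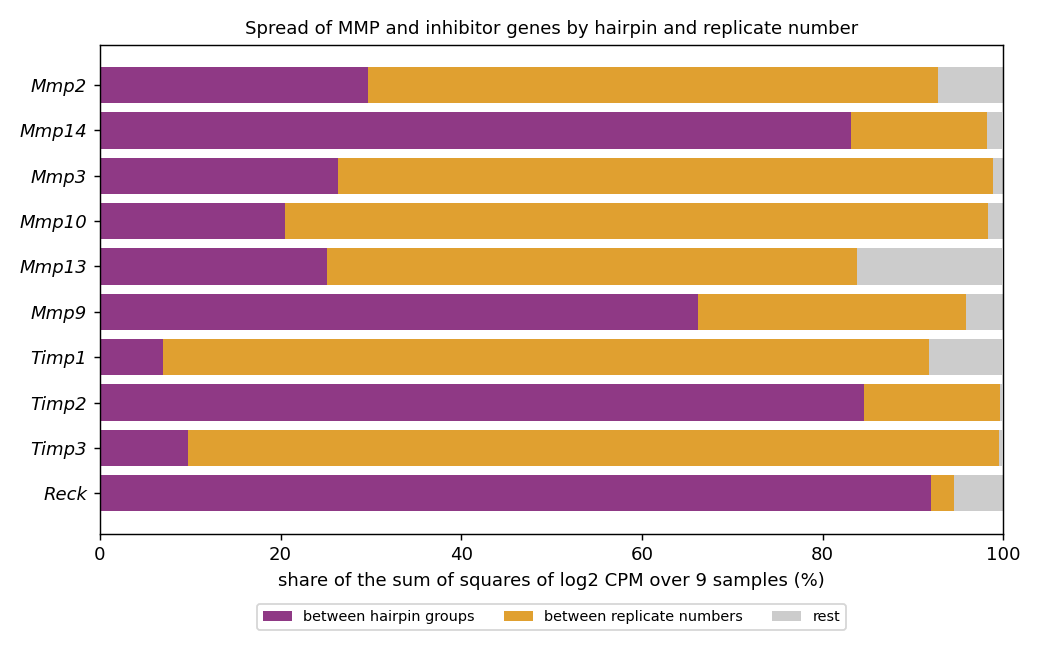
Share of the sum of squares of log2 CPM over 9 samples that lies between hairpin groups, between replicate numbers and in the rest, for each of the 10 genes. The share between numbers is the larger for Mmp2, Mmp3, Mmp10, Mmp13, Timp1 and Timp3, and the share between groups for Mmp9, Mmp14, Timp2 and Reck.

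The ratio of Mmp14 to Timp2, the pair that forms the pro-MMP2 activation complex, was computed per kilobase after the values of both genes were seen. It was 0.661, 0.541 and 0.688 in shRela-1 and 0.486, 0.420 and 0.506 in shRela-2, against 0.484, 0.400 and 0.505 in shScr. The shRela-1 samples were above all controls, and the shRela-2 samples overlapped them. The exact two-sided permutation p was 0.10 for shRela-1 against shScr, the smallest that 3 against 3 samples allow, and 0.60 for shRela-2. The summed level of the 6 MMP genes over that of the 3 TIMP genes was 0.327 ± 0.0271 in shRela-1, 0.318 ± 0.0237 in shRela-2 and 0.303 ± 0.0283 in shScr (SD, n = 3 each), with exact permutation p of 0.40 and 0.70. Adjusted over these 4 comparisons, p was between 0.40 and 0.70. These permutations do not use the replicate numbers. By replicate number, the ratio of summed levels was 0.347, 0.296 and 0.339 in the shRela-1 samples and 0.341, 0.294 and 0.319 in the shRela-2 samples, against 0.320, 0.271 and 0.319 in shScr, so every shRela-1 sample was above the control of its own number.

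Of 17 other MMP genes, 12 were tested. The counts in this list and in those that follow stand beside the same shares over all genes. Those shares were 12.3% rising and 12.4% falling with shRela-1, and 15.4% rising and 15.4% falling with shRela-2. With the block, 39.3% of all genes passed with shRela-1 and 44.4% with shRela-2, in either direction. Mmp12, macrophage elastase, fell with both hairpins. It stood at 8.55, 11.5 and 14.0 CPM in the shRela-1 samples and at 7.55, 11.3 and 13.5 CPM in the shRela-2 samples, against 13.6, 21.9 and 22.5 CPM in shScr. The knockdown samples were below the controls except that shRela-1 replicate 3 exceeded shScr replicate 1. The log2 fold change was -0.77 ± 0.25 with shRela-1 (edgeR adjusted p = 0.0443) and -0.84 ± 0.25 with shRela-2 (edgeR adjusted p = 0.0252). The first call was lost without shScr replicate 2 (0.126) or 3 (0.149), shRela-1 replicate 1 (0.127) or 2 (0.0948) or shRela-2 replicate 2 (0.0585), and in DESeq2 (0.0505). The second was lost without shScr replicate 2 (0.0771) or 3 (0.0946) or shRela-2 replicate 1 (0.0765) or 2 (0.0574). With the block the log2 fold change of Mmp12 was -0.76 with shRela-1 (edgeR adjusted p = 8.46e-09) and -0.85 with shRela-2 (edgeR adjusted p = 1.94e-09). The summed macrophage markers, given above, overlapped between the groups but were lower in shRela-2 than in the shScr sample of each number, and their part in the level of Mmp12 was not tested.

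Mmp11 (stromelysin 3) rose with shRela-2 by 0.29 ± 0.044 on the log2 scale (edgeR adjusted p = 6.67e-04), with 55.8 ± 2.29 CPM in shRela-2 against 45.6 ± 2.22 CPM in shScr, and stood at 47.7 ± 0.143 CPM in shRela-1. Mmp16, another membrane-type MMP, was at 11.7 ± 2.39 CPM in the shRela-1 samples and 17.6 ± 3.61 CPM in the shRela-2 samples, against 12.9 ± 2.38 CPM in shScr. Its log2 fold change with shRela-2 was 0.44 ± 0.19 (edgeR adjusted p = 0.0997, 5.42e-06 with the block, and 0.0394 without shRela-2 replicate 1). With the block, 3 of the 12 genes passed for shRela-1 and 7 for shRela-2, 6 of which were higher than in shScr. The median log2 fold change of the 12 was 0.05 for shRela-1 and 0.26 for shRela-2.

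**Figure D5:**
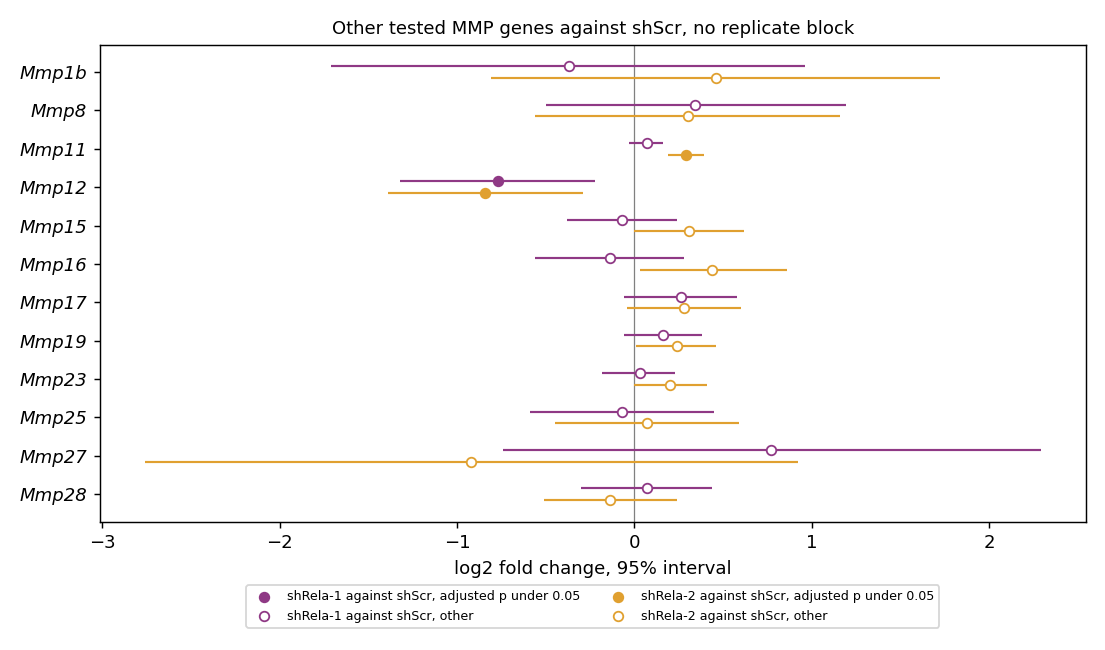
Log2 fold changes of 12 other MMP genes against shScr with 95% intervals, without the replicate block. Filled points have an adjusted p under 0.05, which holds for Mmp12 with both hairpins and for Mmp11 with shRela-2.

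Of 13 genes for activators and docking partners of MMPs, 2 rose and 3 fell with shRela-1 (1 rose without shRela-1 replicate 3), and 4 rose and 3 fell with shRela-2. With the block 6 were higher and 5 lower with shRela-1, and 5 higher and 4 lower with shRela-2, and the unblocked medians were 0.08 and 0.02 on the log2 scale. Plau, the urokinase that generates plasmin, was at 91.7 ± 13.8 CPM in the shRela-1 samples and 47.6 ± 3.31 CPM in the shRela-2 samples, against 134 ± 13.7 CPM in shScr. Plau fell with both hairpins, with a log2 fold change of -0.54 ± 0.10 for shRela-1 (edgeR adjusted p = 0.00344) and -1.49 ± 0.11 for shRela-2 (edgeR adjusted p = 6.41e-06). Cd44, a hyaluronan receptor that can dock MMP9 and MMP14, fell by 0.46 (SE 0.046) with shRela-1 (edgeR adjusted p = 5.86e-05) and by 0.48 (SE 0.046) with shRela-2 (edgeR adjusted p = 3.80e-05).

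Of 9 other inhibitors and clearance factors tested, 1 rose and 2 fell with shRela-1, and 2 rose with shRela-2. With the block 2 were higher and 3 lower with shRela-1, and 4 higher and 2 lower with shRela-2, and the unblocked medians were 0.04 and 0.09. Thbs1, a matricellular protein that binds MMP2 and MMP9, fell by 0.18 (SE 0.041) on the log2 scale with shRela-1 (edgeR adjusted p = 0.00992) and rose by 0.26 ± 0.041 with shRela-2 (edgeR adjusted p = 7.26e-04), again opposite in sign between the hairpins. Pcolce, an enhancer of procollagen processing, had log2 fold changes of 0.18 ± 0.060 (edgeR adjusted p = 0.048) and 0.22 ± 0.060 (edgeR adjusted p = 0.0174). The first call of Pcolce was lost without shScr replicate 2 or 3, shRela-1 replicate 1 or 2 or shRela-2 replicate 2 (edgeR adjusted p up to 0.161), and the second without shScr replicate 2 or 3 or shRela-2 replicate 1 or 2 (up to 0.0744). The first was also lost with library totals alone (0.0989) and in a fit of the 2 groups alone (0.0521). With the block Pcolce had values of 0.18 with shRela-1 (edgeR adjusted p = 9.85e-05) and 0.22 with shRela-2 (edgeR adjusted p = 8.98e-06). Spock2, a testican proteoglycan, had a log2 fold change of -0.44 ± 0.14 with shRela-1 (edgeR adjusted p = 0.0394). That call was lost without shScr replicate 2 or 3, any shRela-1 sample or shRela-2 replicate 1 (up to 0.138). It was also lost in a fit of the 2 groups alone (0.0525). With the block the value of Spock2 for shRela-1 was -0.44 (edgeR adjusted p = 0.00811). With shRela-2 the value of Spock2 was 0.39 ± 0.14 (edgeR adjusted p = 0.0508, 0.0116 with the block, 0.0364 without shRela-2 replicate 3, 0.0486 with DESeq2 size factors and 0.0436 with library totals alone), and DESeq2 gave an adjusted p of 0.035. Between the hairpins Spock2 was 0.84 ± 0.14 higher with shRela-2 (edgeR adjusted p = 6.93e-04).

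Among 6 other metalloproteinases that TIMPs or RECK inhibit, 2 rose and 1 fell with each hairpin. With the block 2 were higher and 2 lower with shRela-1, and 5 higher and 1 lower with shRela-2, and the unblocked medians were 0.04 and 0.24. Adam10, a sheddase that RECK inhibits, was at 170.3 ± 2.43 CPM in the shRela-1 samples and 197 ± 6.03 CPM in the shRela-2 samples, against 139.5 ± 2.43 CPM in shScr, and rose by 0.29 ± 0.036 (edgeR adjusted p = 2.60e-04) and 0.50 ± 0.036 (edgeR adjusted p = 7.28e-06) on the log2 scale. Adam17, the TNF-converting enzyme that TIMP3 inhibits, rose by 0.22 ± 0.035 (edgeR adjusted p = 0.001) and 0.26 ± 0.035 (edgeR adjusted p = 3.33e-04). Adam12 fell by 0.49 (SE 0.079) with shRela-1 (edgeR adjusted p = 0.00131) and by 0.29 (SE 0.079) with shRela-2 (edgeR adjusted p = 0.0163). The second call was lost without shScr replicate 3 (0.0673) or shRela-2 replicate 1 (0.0576) or 2 (0.0665). With the block the value of Adam12 for shRela-2 was -0.29 (edgeR adjusted p = 8.69e-07).

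Of 20 regulators of MMP promoters, 2 rose and 8 fell with shRela-1, and 2 rose and 9 fell with shRela-2. The list holds Rela and its partners Nfkb1, Nfkb2, Relb and Rel. Rela, the target of both hairpins, is counted among those that fell in each comparison, with and without the block. Its part in these counts was thus fixed by the design. For shRela-1, 1 rose when replicate 2 or 3 of shScr, or replicate 1 or 2 of shRela-1, was omitted. With the block 4 were higher and 9 lower with shRela-1, and 4 higher and 11 lower with shRela-2, and the unblocked medians were -0.02 and -0.15. Fosl2, an AP-1 subunit, was at 287 ± 21.4 CPM in the shRela-1 samples and 174 ± 3.51 CPM in the shRela-2 samples, against 264 ± 13.9 CPM in shScr. It fell by 0.60 (SE 0.057) on the log2 scale with shRela-2 (edgeR adjusted p = 3.49e-05), and its value with shRela-1 was 0.12 ± 0.057 (edgeR adjusted p = 0.165, and 0.00454 with the block). Etv4, an ETS factor, fell by 0.92 (SE 0.065) with shRela-1 (edgeR adjusted p = 4.70e-06). It had a log2 fold change of 0.23 ± 0.064 with shRela-2 (edgeR adjusted p = 0.0182). That call was lost without shScr replicate 2 (0.0763) or shRela-2 replicate 1 (0.0637). With the block the value of Etv4 for shRela-2 was 0.23 (edgeR adjusted p = 5.55e-04).

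Of 16 matrix substrates tested, 3 rose with shRela-1, and 1 rose and 2 fell with shRela-2 (3 rose without shScr replicate 3, and 1 fell without shScr replicate 1 or 3 or shRela-2 replicate 2). With the block 8 were higher and 1 lower with shRela-1, and 4 higher and 3 lower with shRela-2, and the unblocked medians were 0.09 and 0.04. Col3a1, a fibrillar collagen chain, rose by 0.33 ± 0.071 with shRela-1 (edgeR adjusted p = 0.0065) and had a value of -0.01 ± 0.071 with shRela-2 (edgeR adjusted p = 0.964). Nid1, a basement membrane linker, rose by 0.21 ± 0.042 with shRela-2 (edgeR adjusted p = 0.00312) and had a value of 0.05 ± 0.042 with shRela-1 (edgeR adjusted p = 0.395).

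Other genes with a pattern most like Reck were found by the Euclidean distance between log2 CPM values over the 9 samples, each gene centred on its own mean. The nearest of 4065 genes compared were Tpcn1 at 0.32, Fam134c at 0.34 and Sec23a at 0.36, beside a median distance of 0.98. For Mmp9 the nearest of 10527 genes were Lancl3 at 0.60, Perm1 at 0.68 and Tfpi2 at 0.74, beside a median of 1.66. These distances describe the 9 samples and carry no test.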

How the data were processed

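The authors deposited raw counts per gene for all 9 samples, with no pooling. The submitters' processing notes name featureCounts 1.4.6 of Subread, Bowtie2 2.2.6, TopHat2 2.0.14 and the build mm10 without settings, and libraries were made with the TruSeq v2 kit, which does not mark strand, per the labels' protocols. Samples were grouped by their titles. Deposited counts equal to 2 were more frequent (7984) than counts equal to 1 (2764), and no label states whether read mates were counted separately.

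Counts were tested in R 4.3.3 with edgeR 4.0.16 (filterByExpr defaults, TMM factors 0.976 to 1.02, a mean per group over 9 samples, glmQLFTest, two-sided), with Benjamini-Hochberg adjustment over 15369 genes and a threshold of 0.05. CPM values are mean ± SD, and log2 CPM used a prior count of 2. The edgeR test without the block was checked on simulated counts of genes that had passed the filter. The simulated counts held no effect of replicate number, and the filter and intervals were not checked on them. No replicate pair agreed within sampling noise (a chi-square of 11.3 to 106 per degree of freedom), so all 9 samples were kept.

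Replicate numbers come from the titles. Deviations from group means correlated at 0.189 to 0.415 in the 9 same-numbered pairs and at -0.306 to 0.0459 in the 18 others, so the numbers were taken to pair the samples and a fit with the replicate block is given beside the first.

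Alternatives were DESeq2 1.42.0, limma 3.58.1 voom, DESeq2 size factors, library totals alone, no filter, the 2 groups compared alone, the replicate block and leaving out each sample. Positions are from GENCODE M21 (GRCm38) and promoters from RefSeq (GRCm38.p6). The members and lists were chosen with earlier results of these data known. All 10 members were named, and of each other list up to 3 genes with the smallest p against shScr and a mean log2 CPM of at least 0. Some genes that this rule took are not reported here.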

Additional observations from a re-analysis of the deposited data

Results flagged for a closer look

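Timp2 stood apart among the 10 genes because the difference between the hairpins was itself past the test without the block. That is common over all genes, of which 20.0% rose and 19.9% fell with shRela-2 relative to shRela-1. With the block 7 of the 10 genes passed between the hairpins, where 51.9% of all genes did, and with library totals alone 3 passed. Timp2 was 0.52 higher on the log2 scale with shRela-2 than with shRela-1. Every shRela-2 sample was above every shScr sample, and every shRela-1 sample was below. The difference was between 0.46 and 0.59 when any 1 sample was left out.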

How the results depend on the processing

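With the replicate block, the genes past the threshold with shRela-1 against shScr numbered 6034, against 3799 without it, and the members past it were 8 with shRela-1, 8 with shRela-2 and 7 between the hairpins, against 4, 4 and 1. With library totals alone, 3 members passed between the hairpins. Leaving out each sample in turn gave 1 to 4 members with shRela-1, 2 to 5 with shRela-2 and 1 to 2 between the hairpins. DESeq2, voom, DESeq2 size factors, no filter and the 2 groups alone left these counts of members at 4, 4 and 1. Some values that were not called changed sign without single samples: with shRela-1, Mmp13 ran from -0.30 to 0.11 and Timp1 from -0.11 to 0.07; with shRela-2, Mmp10 ran from -0.79 to 0.20, Timp1 from -0.14 to 0.01, Timp3 from -0.21 to 0.24 and Col3a1 from -0.06 to 0.05 (0.01 with library totals alone). Between the hairpins, Mmp3 ran from -0.61 to 0.20, Mmp9 from -0.11 to 0.28, Mmp10 from -0.02 to 1.16, Timp1 from -0.11 to 0.04 and Rela from -0.02 to 0.05. The cause of these changes was not tested. With 3 samples a group, a permutation p cannot go below 0.10.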
